A study of Homo sapiens with 2 samples.

Results

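The ATF4 stress response was examined after knockdown of SUB1, a transcriptional coactivator, in PC3, a prostate cancer cell line derived from a metastasis. The group was set by name as 10 genes (ATF4, ATF3, DDIT3, DDIT4, NUPR1, ASNS, TRIB3, CHAC1, SESN2 and PPP1R15A) and takes every gene probe that carries one of these names in the array files. All 10 genes were found, with 14 probes among the 41000 on the array, and 13 of these were among the 25673 probes kept after a filter on dim signals, which represent 19218 genes. PC3 cells received Non-T siRNA, SUB1 siRNA 1 or SUB1 siRNA 2, with a repeat transfection the next day, and RNA was taken 72 h after the first transfection. One dual-colour array was made per SUB1 siRNA, with the Non-T RNA in Cy3 and the SUB1 siRNA RNA in Cy5 on both, and both arrays lay on 1 slide. No dye-swapped array was analysed, so an effect of SUB1 siRNA cannot be told apart from unequal labelling by the dyes, and whether both arrays carried the same Non-T extract is not given in the sources used here.

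ATF4 is the transcription factor at the centre of the integrated stress response. Kinases that sense unfolded protein, amino acid shortage, double-stranded RNA or lack of haem phosphorylate the translation factor eIF2, which lowers general protein synthesis while the ATF4 mRNA is translated more. ATF4 then joins other basic leucine zipper (bZIP) proteins on promoters of genes for amino acid supply, for control of the kinase complex mTORC1 and for the ending of the response itself. Much of this control acts on translation, so the ATF4 mRNA on an array is not a measure of ATF4 protein.

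SUB1 itself was read by 4 probes, which kept between 7.42% and 28.6% of the Non-T signal with siRNA 1 and between 8.85% and 33.8% with siRNA 2. Of the markers looked at, the epithelial genes KRT8, KRT18, KRT19 and EPCAM and the mesenchymal gene VIM were well above background in Non-T cells on both arrays. The probes of PTPRC were not well above background in either channel of either array. PECAM1 and 1 of 3 KLK3 probes were also well above background in Non-T cells on both arrays. That KLK3 probe had a mean log2 intensity of 14.41 over both channels and arrays, but the others had 6.45 and 6.01. The KLK3 probes thus disagreed, and PECAM1 was dim, at 6.88. The RNA came from whole cultures, so a difference in every cell and one in a share of the cells cannot be told apart. Of the gene spots, between 54.3% and 67.2% were well above background in a channel, and none was saturated. Over all kept probes the siRNA 1 ratio (log2 of SUB1 siRNA over Non-T cells) had a median of 0.01 and an SD of 0.29, and that of siRNA 2 a median of 0.02 and an SD of 0.33. Among 209 probes spotted 10 times, the median SD between spots of a probe was 0.078 for siRNA 1 and 0.074 for siRNA 2, an error of the array alone that leaves out any difference between cultures. Each of the 14 stress response probes was spotted once, and none of these spots was flagged as an outlier.

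With siRNA 2, 4 of the 13 kept probes were at least 2-fold higher than in Non-T cells, those of DDIT4 and NUPR1 and 1 probe each of DDIT3 and ATF3, where 0.526% of all kept probes reached that ratio. None was at least 2-fold lower (0.923% of all kept probes). With siRNA 1, no probe of the group was 2-fold higher (0.195% of all) or lower (0.557% of all). All 13 ratios were above 0 with siRNA 2, between 0.07 and 1.68, whereas with siRNA 1 they lay between -0.97 and 0.51 and 8 of 13 were above 0. Of these 13, ATF3 A_24_P33895 passed the filter on dim signals only through the SUB1 siRNA channel. Its ratios above 0 are included in both counts but are no support, as the filter favoured a high SUB1 siRNA signal for it. Over the brightest probe of each gene, the median log2 ratio of the 10 genes was 0.08 with siRNA 1 and 0.68 with siRNA 2, beside 0.02 and 0.02 for all 19218 genes. The group was chosen with earlier results of these arrays known, so these counts describe the genes and do not support the choice.

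**Figure D1:**
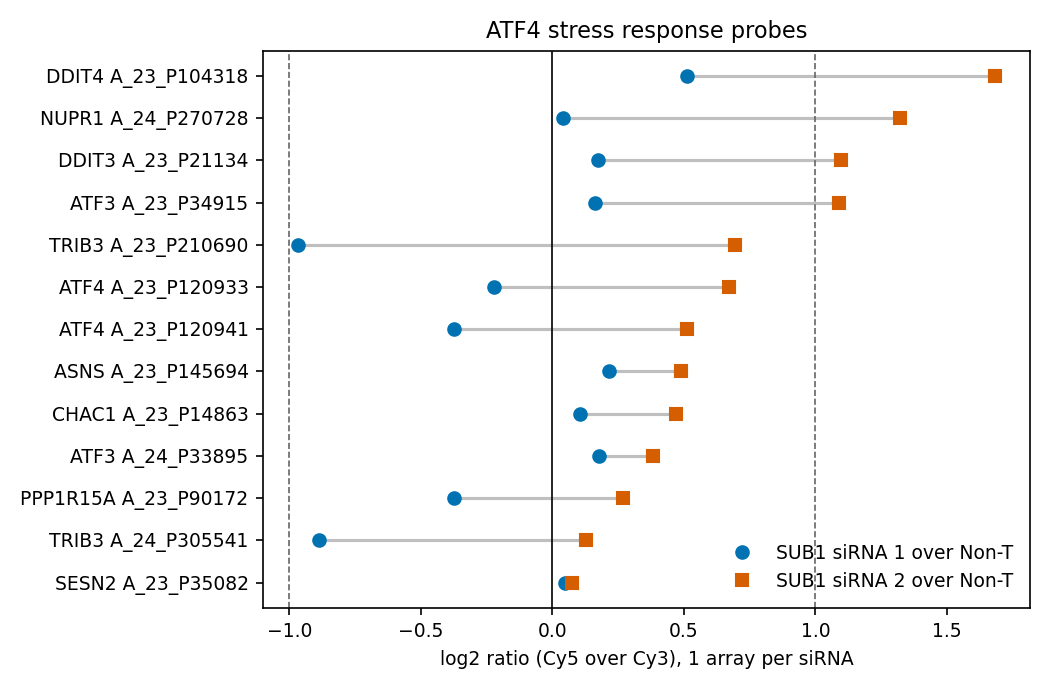
Log2 ratio over Non-T cells (x axis) for the 13 kept probes of the ATF4 stress response genes (y axis, ordered by the ratio with siRNA 2), with circles for siRNA 1 and squares for siRNA 2, 1 array each, and dashed lines at a 2-fold ratio. DDIT4, NUPR1, DDIT3 and the brighter ATF3 probe lie beyond 2-fold with siRNA 2, no probe does with siRNA 1, and every square lies to the right of its circle.

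Promoters were taken from a table of RefSeq sequences (GRCh38.p14), in which 9 of the 10 genes were matched, with 15 transcription starts, and the 250 bases before each start were searched on both strands. The motif of ATF4 with a C/EBP partner was taken as TGATGNAA, which includes the forms TGATGCAA and TGATGAAA. It was found in 3 of the 15 promoters, those of ATF3, ASNS and CHAC1, and in 3.14% of all 35116 promoters of the same length. TGATGCAA alone was in the CHAC1 promoter (0.772% of all promoters) and TGATGAAA alone in that of ASNS (0.931% of all). The cyclic AMP response element TGACGTCA, which other bZIP factors also bind, was in the PPP1R15A promoter (1.65% of all), and CCAAT was in 6 of the 15, which belong to ATF3, DDIT3, DDIT4, CHAC1 and SESN2 (32% of all). No TGATGNAA was found in these windows for DDIT4, DDIT3, ATF4, TRIB3, SESN2 or PPP1R15A, which says only that the letters are not in these 250 bases. A match here is a run of letters and not a site shown to be bound.

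DDIT4 encodes REDD1, a stress protein that inhibits mTORC1 through the TSC complex. Its probe A_23_P104318 (hg18 chr10:73705369-73705428) had a log2 signal of 11.16 in Non-T and 11.68 in siRNA 1 cells on the siRNA 1 array, and of 11.23 in Non-T and 12.92 in siRNA 2 cells on the siRNA 2 array. The Non-T signals of both arrays thus lay 0.07 apart, while siRNA 2 cells stood 1.24 above siRNA 1 cells. DDIT4 was thus 1.43-fold higher with siRNA 1 (log2 ratio 0.51) and 3.21-fold higher with siRNA 2 (log2 ratio 1.68). With siRNA 2 only 9 of the 25673 kept probes had a higher ratio, and with siRNA 1 there were 842 such probes. DDIT4 was the member with the highest ratio on each array. The 250 bases before its start are shown because DDIT4 had the highest ratios of the group. Both matches to the reverse complement of CCAAT are in capitals, and the sequence lies in GRCh38.p14 at chr10:72273674-72273923 on the plus strand.

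DDIT4: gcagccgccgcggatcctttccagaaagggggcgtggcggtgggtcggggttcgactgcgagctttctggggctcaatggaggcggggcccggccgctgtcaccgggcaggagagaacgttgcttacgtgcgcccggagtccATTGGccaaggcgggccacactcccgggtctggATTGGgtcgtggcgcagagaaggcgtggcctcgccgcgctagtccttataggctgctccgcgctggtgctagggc

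SESN2 encodes a leucine sensor that also restrains mTORC1, by another route than DDIT4. Its probe A_23_P35082 (hg18 chr1:28480781-28480840) was dim, with a log2 signal of 7.47 in Non-T and 7.52 in siRNA 1 cells on the siRNA 1 array, and of 7.27 in Non-T and 7.35 in siRNA 2 cells on the siRNA 2 array. The ratios of 0.05 and 0.07 were about as small as the spread between spots of a probe, and SESN2 was the gene of the group with the smallest difference between the siRNAs, 0.03.

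NUPR1 encodes a small chromatin-associated protein that many stresses induce. Probe A_24_P270728 (hg18 chr16:28456322-28456381) had a log2 signal of 11.92 in Non-T and 11.96 in siRNA 1 cells, and of 12.13 in Non-T and 13.46 in siRNA 2 cells. NUPR1 was thus near the Non-T level with siRNA 1 (log2 ratio 0.04, 1.03-fold) and 2.50-fold higher with siRNA 2 (log2 ratio 1.32). With siRNA 2, 35 kept probes had a higher ratio than NUPR1, and with siRNA 1 there were 11681. The Non-T signals of the arrays differed by 0.21 for this probe, against an SD of 0.12 over all kept probes.

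ATF4, the regulator itself, was read by 2 probes. The brighter probe A_23_P120933 (hg18 chr22:38248523-38248582) had a log2 signal of 14.26 in Non-T and 14.04 in siRNA 1 cells, and of 14.23 in Non-T and 14.90 in siRNA 2 cells. The other, A_23_P120941 (chr22:38247821-38247880), had 10.49 in Non-T and 10.12 in siRNA 1 cells, and 10.61 in Non-T and 11.12 in siRNA 2 cells. The signal was thus lower than in Non-T with siRNA 1 and higher with siRNA 2 on both probes, by log2 ratios of -0.22 and 0.67 on the brighter probe and of -0.37 and 0.51 on the other. None of these ratios reached 2-fold. When loess was replaced by centring on the array median, the ratio of the brighter probe with siRNA 1 turned to 0.16 and that with siRNA 2 became 1.10, so the direction with siRNA 1 depends on that choice, while the other probe stayed at -0.14 with siRNA 1.

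DDIT3 encodes CHOP, a bZIP factor of the C/EBP family that ATF4 induces and that takes part in cell death under lasting stress. Its probe A_23_P21134 (hg18 chr12:56197467-56197793) had a log2 signal of 9.08 in Non-T and 9.25 in siRNA 1 cells, and of 9.21 in Non-T and 10.30 in siRNA 2 cells. DDIT3 was 1.13-fold higher with siRNA 1 and 2.14-fold higher with siRNA 2, log2 ratios of 0.17 and 1.10. Its promoter is shown as that of a factor that passed 2-fold with siRNA 2. The capitals mark CCAAT and its reverse complement, and the sequence lies in GRCh38.p14 at chr12:57520515-57520764 on the minus strand.

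DDIT3: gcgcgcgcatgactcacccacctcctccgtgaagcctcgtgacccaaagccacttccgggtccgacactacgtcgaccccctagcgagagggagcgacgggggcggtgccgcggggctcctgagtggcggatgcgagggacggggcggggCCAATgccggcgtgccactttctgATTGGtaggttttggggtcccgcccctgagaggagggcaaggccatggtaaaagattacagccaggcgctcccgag

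ATF3, a bZIP factor induced by many stresses, had 2 probes that differed. Probe A_23_P34915 (hg18 chr1:210860479-210860538) had a log2 signal of 9.05 in Non-T and 9.21 in siRNA 1 cells, and of 9.16 in Non-T and 10.25 in siRNA 2 cells. It was 1.12-fold higher with siRNA 1 (log2 ratio 0.16) and 2.13-fold higher with siRNA 2 (log2 ratio 1.09), close to the ratios of DDIT3. The second probe, A_24_P33895 (chr1:210859460-210859519), was not well above background in Non-T cells on either array, though it was in both SUB1 siRNA channels. Its measured log2 ratios were 0.18 with siRNA 1 and 0.38 with siRNA 2 (adjusted p = 0.232 in limma for the mean of both), and over 8 processing settings they ranged from 0.09 to 0.24 and from 0.26 to 1.14. The Non-T signal of this probe, and so the size of its ratios, was not resolved from background, with log2 signals of only 6.32 to 6.75 over all channels. The upstream ATF3 promoter is shown because it holds TGATGGAA, a match to TGATGNAA that starts 191 bases before the start. The capitals mark it and the reverse complement of CCAAT, in GRCh38.p14 at chr1:212565157-212565406 on the plus strand. The other ATF3 start in the table holds none of the motifs.

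ATF3: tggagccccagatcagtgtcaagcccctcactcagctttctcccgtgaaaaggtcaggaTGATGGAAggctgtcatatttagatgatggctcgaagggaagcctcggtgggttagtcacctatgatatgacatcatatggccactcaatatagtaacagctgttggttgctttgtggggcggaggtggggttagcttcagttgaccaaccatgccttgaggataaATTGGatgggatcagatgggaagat

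**Figure D2:**
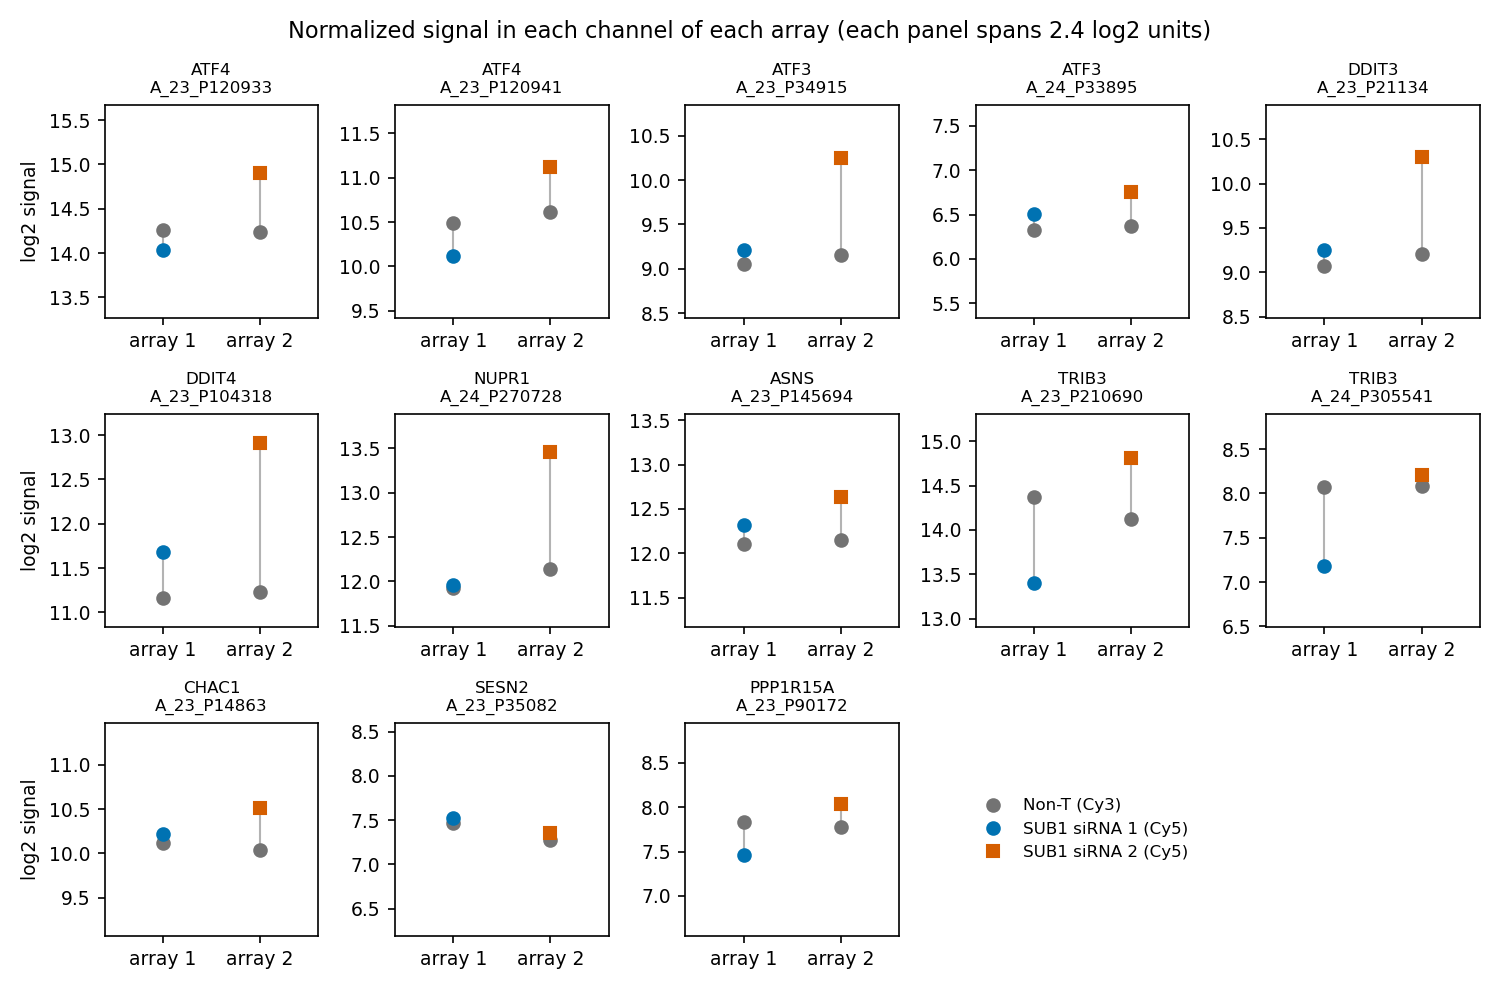
Normalized log2 signal (y axis, each panel on its own scale of 2.4 units) of the 13 kept probes on the siRNA 1 array (array 1) and the siRNA 2 array (array 2), with grey circles for Non-T cells (Cy3), blue circles for SUB1 siRNA 1 and orange squares for SUB1 siRNA 2 (Cy5). For DDIT4, NUPR1, DDIT3 and ATF3 A_23_P34915 the Non-T signals of both arrays lie within 0.21 of each other and the siRNA 2 signal stands apart. For both TRIB3 probes, both ATF4 probes and PPP1R15A the siRNA 1 signal lies below Non-T, farthest for TRIB3.

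TRIB3 encodes a pseudokinase that ATF4 and CHOP induce and that binds ATF4 in return. Probe A_23_P210690 (hg18 chr20:326107-326166) had a log2 signal of 14.37 in Non-T and 13.40 in siRNA 1 cells, and of 14.12 in Non-T and 14.82 in siRNA 2 cells. Probe A_24_P305541 (chr20:324856-324915) had 8.07 in Non-T and 7.18 in siRNA 1 cells, and 8.08 in Non-T and 8.21 in siRNA 2 cells. With siRNA 1 both probes thus had the lowest ratios of the group, -0.97 and -0.89, or 51.2% and 54.0% of the Non-T signal, and 160 and 210 kept probes had a lower ratio. The second probe was dim, close to background in siRNA 1 cells, which limits its ratio. With siRNA 2 the ratios were 0.69 and 0.13, so that the probes placed TRIB3 at different distances above Non-T. The difference between the siRNAs was 1.66 on the brighter probe, which 13 of all kept probes exceeded, and 1.02 on the other. Part of the larger difference lay in the Non-T channel, which was 0.25 lower on the siRNA 2 array for A_23_P210690 and 0.01 apart for A_24_P305541.

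PPP1R15A encodes GADD34, which brings a phosphatase to eIF2 and so ends the response. Its probe A_23_P90172 (hg18 chr19:54069939-54070713) had a log2 signal of 7.83 in Non-T and 7.46 in siRNA 1 cells, and of 7.77 in Non-T and 8.04 in siRNA 2 cells. The log2 ratios of -0.37 and 0.27 lay on either side of 0, as those of ATF4 and TRIB3 did, and neither reached 2-fold.

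ASNS encodes asparagine synthetase, and CHAC1 an enzyme that breaks down glutathione, and both are long-standing ATF4 target genes. ASNS probe A_23_P145694 (hg18 chr7:97319397-97319456) had a log2 signal of 12.11 in Non-T and 12.32 in siRNA 1 cells, and of 12.15 in Non-T and 12.64 in siRNA 2 cells. CHAC1 probe A_23_P14863 (hg18 chr15:39035814-39035873) had 10.11 in Non-T and 10.22 in siRNA 1 cells, and 10.04 in Non-T and 10.51 in siRNA 2 cells. Both were above Non-T with both siRNAs and below 2-fold, at log2 ratios of 0.22 and 0.49 for ASNS and of 0.11 and 0.47 for CHAC1. A second probe named ASNS, A_32_P232747, was not well above background in any channel and was left out. Both promoters are shown because they hold the composite element in its standard forms. In GRCh38.p14 the ASNS sequence lies at chr7:97872409-97872658 on the minus strand, with TGATGAAA in capitals 68 bases before the start. The CHAC1 sequence lies at chr15:40953221-40953470 on the plus strand. Its first capitals are the reverse complement of TGATGCAA, 209 bases before the start, and the others are CCAAT on either strand.

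ASNS: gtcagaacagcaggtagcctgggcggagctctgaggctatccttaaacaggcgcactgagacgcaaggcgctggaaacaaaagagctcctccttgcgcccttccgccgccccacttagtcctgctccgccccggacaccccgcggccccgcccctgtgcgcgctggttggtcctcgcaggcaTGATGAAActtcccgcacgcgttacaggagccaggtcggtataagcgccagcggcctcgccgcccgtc

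CHAC1: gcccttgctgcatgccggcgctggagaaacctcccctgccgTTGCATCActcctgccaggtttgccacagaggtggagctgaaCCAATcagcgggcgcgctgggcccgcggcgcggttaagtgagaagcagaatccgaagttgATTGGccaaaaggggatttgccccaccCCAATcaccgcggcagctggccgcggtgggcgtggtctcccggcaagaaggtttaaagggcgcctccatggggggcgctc

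All 13 kept probes had a higher ratio with siRNA 2 than with siRNA 1, by 0.03 to 1.66 with a median of 0.89, where 12836 of the 25673 kept probes (50%) did so and the median difference was 0.00. At least 2-fold apart were DDIT4, NUPR1 and both TRIB3 probes, 4 of 13, beside 0.608% of all kept probes. The siRNAs had 1 array each, so this difference has no replicate and no test, and the kept probes share 2 arrays and are not independent of each other. In the Non-T channel, which held control RNA on both arrays, the 13 probes differed between the arrays by -0.25 to 0.21, and in the SUB1 siRNA channel by -0.17 to 1.49. Over all kept probes these differences also spread more in the SUB1 siRNA channel, with SDs of 0.12 for Non-T and 0.30 for SUB1 siRNA. The median difference in the SUB1 siRNA channel was 1.00 for the 13 probes and 0.00 for all kept probes. With the processed signals of the scanner software and with the authors' log2 ratios, 12 of 13 probes were higher with siRNA 2, the exception being SESN2 in both, and under the other settings every kept probe of the group was. When both channels had to be well above background, which leaves out ATF3 A_24_P33895, these were 12 of 12.

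**Figure D3:**
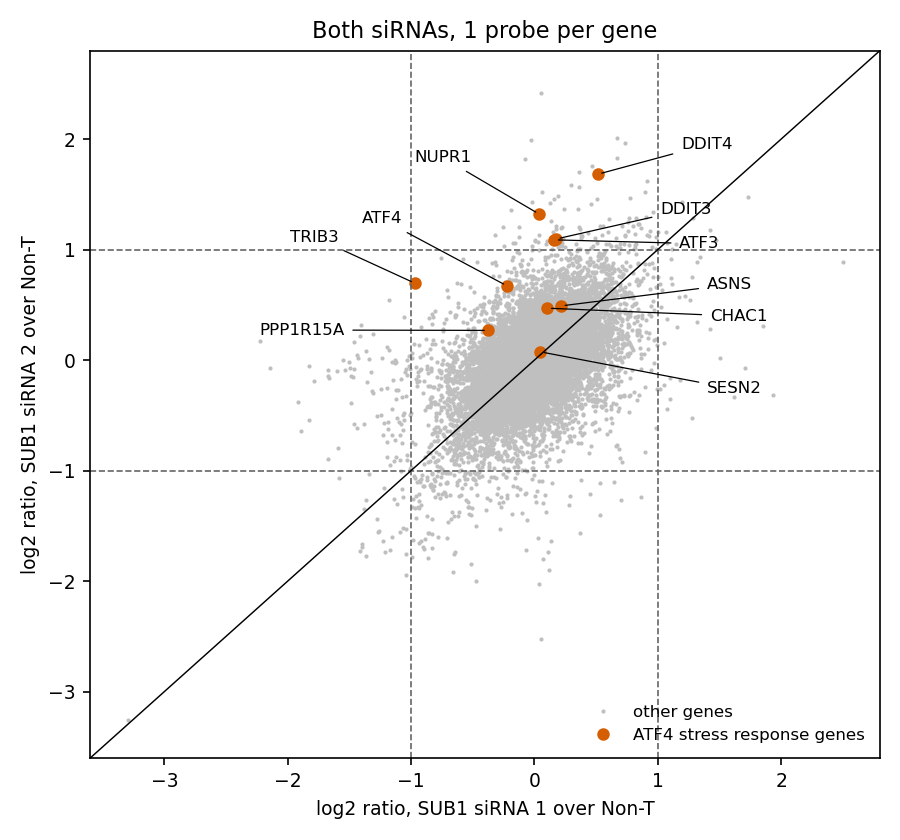
Log2 ratio over Non-T with siRNA 1 (x axis) and with siRNA 2 (y axis) for 19218 genes by their brightest probe, with the 10 ATF4 stress response genes as large points, dashed lines at 2-fold and a solid line where both ratios are equal. The 10 genes lie on or above the solid line, DDIT4 and NUPR1 farthest up and TRIB3 farthest to the left, and both axes share Non-T cells as the control.

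The mean of both siRNAs was tested against 0 with limma over all kept probes, which leaves out the spread of the control. No probe of the group passed an adjusted p of 0.05, whereas 3 probes of the array did (0.0117%), all of them for SUB1. The array count was 452 without a filter on dim probes and 0 with processed signals or the authors' log2 ratios, and no probe of the group passed in any of these. At an unadjusted p below 0.05 there were 5 of 13, DDIT4, DDIT3, ASNS and both ATF3 probes, beside 21.2% of all kept probes. Of these, ATF3 A_24_P33895 is no support, as it passed the filter on dim signals only through the SUB1 siRNA channel. With the stricter filter, which leaves this probe out, 2 of 12 were below 0.05, beside 4637 of all 21196 probes. The count of 5 was thus not stable. It also fell to 2 without background correction, with median spot signals and with the authors' log2 ratios, and to 1 with processed signals. It was 6 with median centring or without a filter. DDIT4 had a mean log2 ratio of 1.10 (SE 0.29, adjusted p = 0.152 in limma), above 0 with both siRNAs. NUPR1 had 0.68 (SE 0.31, adjusted p = 0.290), DDIT3 0.64 (SE 0.23, adjusted p = 0.227) and the brighter ATF3 probe 0.62 (SE 0.23, adjusted p = 0.232). ASNS, though smaller at 0.35, differed less between the siRNAs (SE 0.11, adjusted p = 0.193). For ATF4, TRIB3 and PPP1R15A the siRNAs lay on either side of 0, and their adjusted p ranged from 0.441 for TRIB3 A_24_P305541 to 0.889 for PPP1R15A.

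The genes whose pair of ratios lay nearest to that of DDIT4, by Euclidean distance over both arrays, were GDF15 (0.47 with siRNA 1 and 1.76 with siRNA 2, distance 0.087), S100P (0.36 and 1.70, distance 0.152) and TNFSF10 (0.36 and 1.57, distance 0.189). Nearest to NUPR1 were TRIM22 (0.01 and 1.33, distance 0.028), PRR15 (0.13 and 1.26, distance 0.113) and BATF2 (-0.02 and 1.43, distance 0.122). With 2 values per gene, this likeness is a description of these arrays.

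Other genes of the pathway were taken from 9 lists, each gene by its brightest kept probe. Of all 19218 genes, 0.208% passed 2-fold upward and 0.609% downward with siRNA 1, and 0.614% and 1.07% with siRNA 2. With siRNA 1, no gene of any list reached 2-fold. With siRNA 2, 3 genes were 2-fold higher, GDF15, STC2 and DNAJB9, and NPRL3 was 2-fold lower. No list gene passed an adjusted p of 0.05 in limma.

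Upstream of ATF4, all 12 genes for the eIF2 kinases, eIF2, its exchange factor eIF2B and the phosphatase were measured, with medians of -0.08 with siRNA 1 and -0.16 with siRNA 2. EIF2AK3, which encodes the kinase PERK of the endoplasmic reticulum, was at -0.88 with siRNA 1 and 0.19 with siRNA 2. EIF2B5, a catalytic part of eIF2B, was at -0.21 and -0.51. EIF2S1, which encodes the phosphorylated subunit of eIF2, was at -0.43 and -0.30 on its brightest probe but at 0.67 and 0.47 on a second probe, so its direction could not be given.

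Among other ATF4 targets, 8 of 9 were measured, with medians of 0.01 and 0.16. GDF15, a secreted stress cytokine, was at 0.47 with siRNA 1 and 1.76 with siRNA 2, and STC2, a secreted glycoprotein, at 0.85 and 1.23, with 0.64 and 1.30 on its second probe. The siRNAs thus lay closer together for STC2 than for GDF15. ERO1A, an oxidase of the endoplasmic reticulum, was at -0.49 and -0.44, with -0.05 and -0.16 on its second probe. Of the other stress bZIP factors 5 of 7 were measured, with medians of 0.09 and 0.14, and those farthest from 0 were ATF5 (0.17 and 0.47), JUN (0.35 and 0.14) and CEBPG (-0.42 and 0.09).

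No measured gene for amino acid supply reached 2-fold with either siRNA. Of all genes, 0.208% to 1.07% did so in a given direction on a given array. Lists this short would hold few or none at those shares, so this is no result about these genes. Of 12 measured enzymes of amino acid synthesis and folate metabolism, the median was -0.19 with siRNA 1, with 3 above 0, and 0.20 with siRNA 2, with 8 above 0. Of the 12, 8 were higher with siRNA 2 than with siRNA 1, beside 49.6% of all genes, with a median difference of 0.41. CTH, which makes cysteine from cystathionine, was at -0.73 and -0.80, and PHGDH, the first enzyme of serine synthesis, at -0.69 and -0.10. GPT2, a mitochondrial alanine transaminase, was at 0.22 and 0.76 on its brightest probe and at -0.33 and -0.50 on another. Of 8 measured amino acid transporters the medians were -0.20 and -0.07. Of the 8, 7 were higher with siRNA 2 than with siRNA 1, with a median difference of 0.19. The cystine carrier SLC7A11 was at -0.52 and -0.16, the glutamine carrier SLC1A5 at -0.43 and -0.23 and SLC43A1 at -0.24 and -0.31. These genes were picked by the mean of both siRNAs, which is small where the siRNAs lie on either side of 0. MTHFD2 (-0.45 and 0.50) and SLC38A2 (-0.42 and 0.48, with -0.29 and 0.29 on its second probe) lay so. Both are named here after their values were seen.

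The ATF6 and XBP1 arms of the unfolded protein response, which act beside the PERK and ATF4 arm, had 16 measured genes with medians of 0.00 and 0.13. DNAJB9, a co-chaperone of the endoplasmic reticulum, was at 0.43 with siRNA 1 and 1.15 with siRNA 2. ERN1, which encodes the sensor IRE1, was at 0.50 and 0.63 on its brightest probe and between -0.10 and 0.16 on 2 others, and SDF2L1 was at 0.25 and 0.41.

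mTORC1, which DDIT4 and SESN2 restrain, and its regulators had 12 measured genes with medians of -0.06 and -0.10. NPRL3, a part of the GATOR1 complex that inhibits mTORC1, was at -0.23 and -1.06, but its second probe was at -0.06 and -0.11. DEPDC5, of the same complex, was at 0.38 and 0.33, and MTOR at -0.29 and -0.28.

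DDIT4 is also a target of hypoxia signalling, and the 7 measured hypoxia-responsive genes had the highest medians of the lists, 0.32 with siRNA 1 and 0.51 with siRNA 2. These medians became 0.72 and 0.92 with median centring, and the siRNA 1 median 0.53 with the authors' log2 ratios. KDM3A, a histone demethylase, was at 0.53 and 0.94, with other probes between 0.38 and 0.67 and between 0.71 and 1.00. ADM, the hormone adrenomedullin, was at 0.60 and 0.74, and PDK1, a kinase that holds back pyruvate dehydrogenase, at 0.55 and 0.51, with 0.03 and 0.13 on its second probe. The list was not uniform: CA9, a carbonic anhydrase, was at -0.71 and -0.18, and ANKRD37 at -0.14 and 0.98, both named here after their values were seen. The part of hypoxia-responsive genes in the DDIT4 values was not tested. Of 10 paralogs of the group, 6 were measured, with medians of 0.17 and 0.23, led by SESN1 (0.48 and 0.23), TRIB1 (0.40 and 0.26, with -0.10 and -0.11 on another probe) and ATF5. When loess was replaced by median centring, 4 of the 9 list medians turned sign with siRNA 1 and 3 with siRNA 2, all of them within 0.20 of 0. With siRNA 1, 3 also turned with processed signals, 2 without background correction, 1 with the authors' log2 ratios and 1 with the mean of all probes of a gene.

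**Figure D4:**
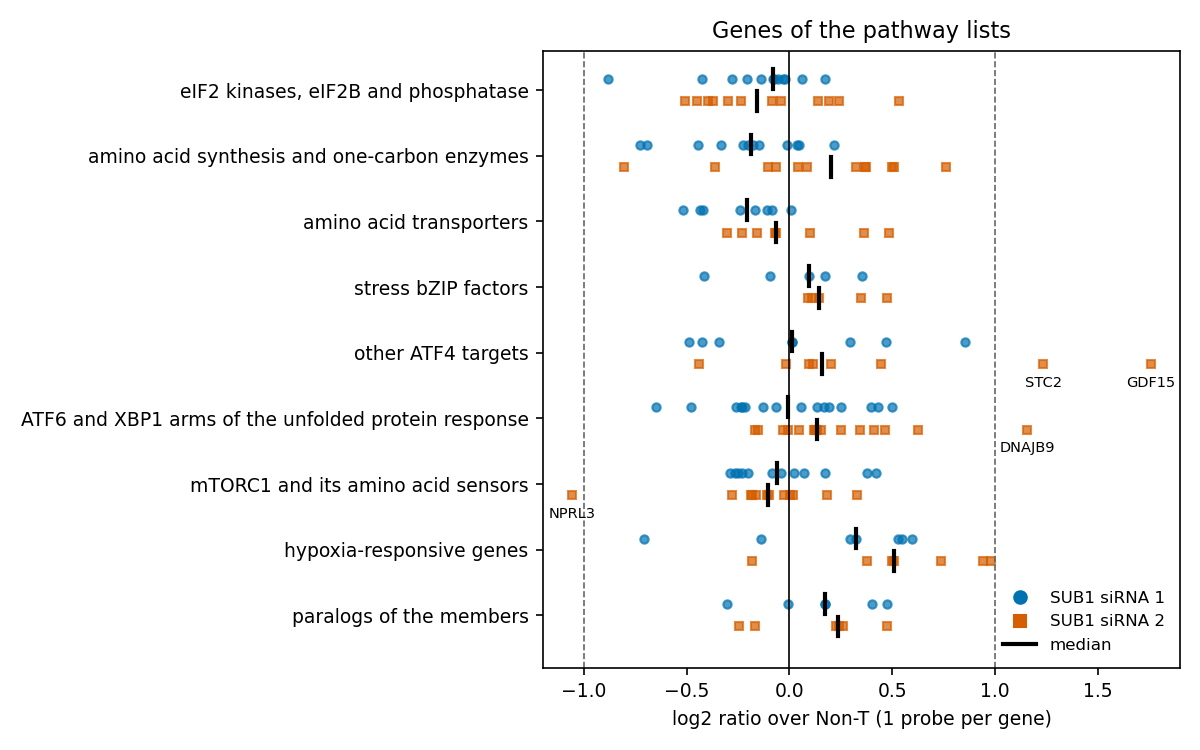
Log2 ratio over Non-T (x axis) of each measured gene in the 9 pathway lists (y axis), by its brightest kept probe, with circles for siRNA 1, squares for siRNA 2, black bars for the list medians and dashed lines at 2-fold. GDF15, STC2 and DNAJB9 lie beyond 2-fold above Non-T and NPRL3 below it with siRNA 2, and the list of hypoxia-responsive genes has the medians farthest to the right. The list labelled mTORC1 and its amino acid sensors holds parts and regulators of mTORC1.

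**Figure D5:**
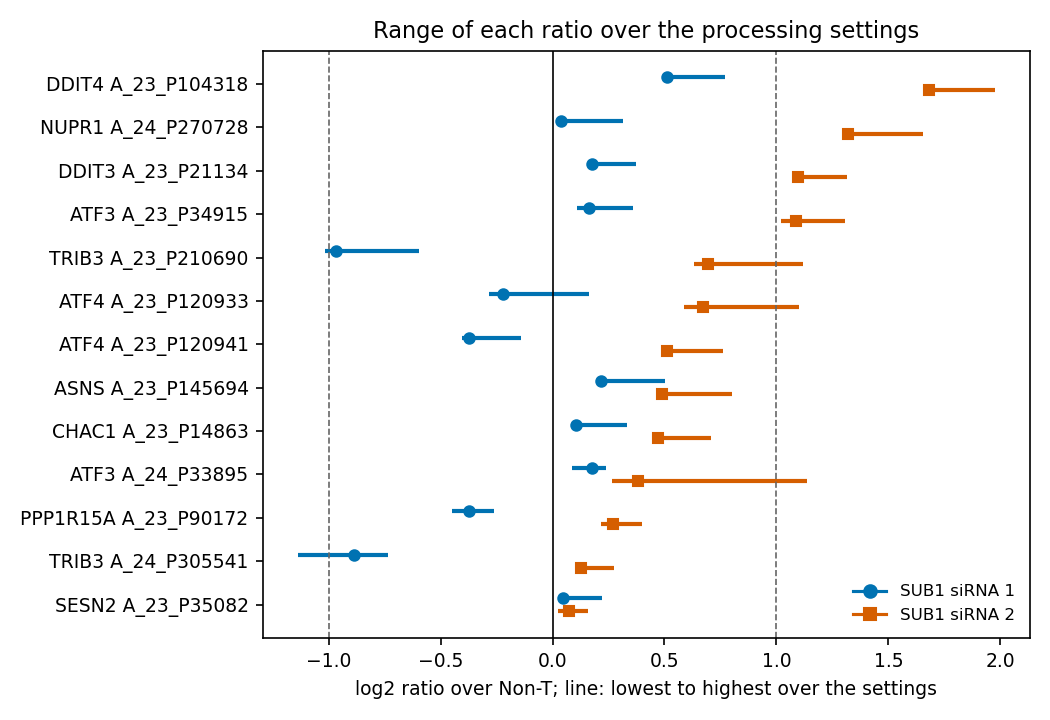
Log2 ratio over Non-T (x axis) of the 13 kept probes (y axis), with the reported value as a point and a line from the lowest to the highest value over 9 processing settings (8 for ATF3 A_24_P33895), siRNA 1 as circles and siRNA 2 as squares. DDIT4, NUPR1, DDIT3 and ATF3 A_23_P34915 stay beyond 2-fold with siRNA 2 under all 9 settings, while the line of ATF4 A_23_P120933 crosses 0 with siRNA 1.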

How the data were processed

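RNA of PC3 cells was measured on Agilent whole human genome arrays. The authors deposited the scanner output of Feature Extraction 9.5.1.1, in which each spot has an intensity and a local background in both channels, flags and processed signals. The deposited files also hold log10 ratios with an error and a p-value from the software, which were not used. A table holds the authors' log2 ratios, made by loess on each array per the methods. Its direction was set against the scanner files (Pearson correlation across probes of 0.960 and 0.970 with the ratios computed here).

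Here, mean signals were corrected with normexp (offset 50) against the median local background, controls were dropped, and log2 ratios of Cy5 over Cy3 were normalized within arrays with limma 3.58.1 (loess, span 0.3; R 4.3.3). Replicate spots were averaged without those flagged as outliers. The filter on dim signals asked that on both arrays a share of 0.5 or more of the spots be well above background in 1 or both channels. Channel signals were normalized between arrays with Aquantile. A 2-fold ratio was the call for a single array, which has no test. For lists, the brightest kept probe of a gene was taken. The mean of both siRNAs was tested in limma (lmFit, eBayes) with Benjamini-Hochberg adjustment over the 25673 kept probes. The number of arrays limits the precision. The 2 samples received different siRNAs with 1 array each, so the spread between them mixes siRNA, culture and array. The p-values rest on that spread and on a variance that eBayes borrows from all kept probes. Scripts were tested on simulated data.

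Probe coordinates are those of the files (hg18). No annotation of that build was used here, so exons and UTRs are not given. Promoters and gene names came from RefSeq (GRCh38.p14), and NUPR1 has no promoter shown. The members and lists were chosen with earlier results of these data known. Some marker genes that were looked at are not reported here. Named genes were SUB1, every member, in each list the 3 genes whose mean ratio was farthest from 0, list genes past 2-fold, and the 3 genes nearest to DDIT4 and to NUPR1. A few more list genes were named after their values were seen, as said where they appear. Alternatives were no background correction, median spot signals, median centring, the software's processed signals, the authors' log2 ratios, other filters on dim probes, outlier spots kept, a single siRNA, other variance priors and the mean of a gene's probes.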

Additional observations from a re-analysis of the deposited data

How the results depend on the processing

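DDIT4, NUPR1, DDIT3 and ATF3 A_23_P34915 were at least 2-fold higher with siRNA 2 under all 9 settings of background, normalization, source and filter. The count of 2-fold higher probes with siRNA 2 was 4, and became 5 with processed signals (the dim ATF3 probe A_24_P33895, at 1.14) and 6 with median centring (ATF4 A_23_P120933 at 1.10 and TRIB3 A_23_P210690 at 1.12). With siRNA 1, 1 probe was 2-fold lower with median spot signals (TRIB3 A_23_P210690, at -1.02) and 1 with processed signals (TRIB3 A_24_P305541, at -1.14). The median of the 10 genes with siRNA 1 moved to 0.32 with median centring and 0.16 with processed signals, and with siRNA 2 to 1.11 with median centring, 0.77 with the authors' log2 ratios and 0.54 with the mean of all probes. Of 206 single ratios under an alternative, 48 moved by more than the spread between spots, 24 of them with median centring, which raised all kept probes to medians of 0.11 and 0.10. With siRNA 2, list medians became 0.45 for the ATF6 and XBP1 arms, 0.47 for amino acid synthesis, 0.36 for other ATF4 targets and 0.40 for stress bZIP factors with median centring. The mean of both siRNAs turned to 0.26 for TRIB3 A_23_P210690 and to 0.069 for PPP1R15A with median centring. The cause was not tested.

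With 1 siRNA left out, a mean became the ratio of the other siRNA. It then ranged from -0.97 to 0.69 for TRIB3 A_23_P210690, from -0.89 to 0.13 for TRIB3 A_24_P305541, from -0.37 to 0.27 for PPP1R15A, from -0.22 to 0.67 for ATF4 A_23_P120933 and from -0.37 to 0.51 for ATF4 A_23_P120941, so that the direction of these means depends on which siRNA is used. These values have no test. The lowest adjusted p of the group lay between 0.0718 and 0.213 over 11 fits, and no probe of the group passed 0.05 in any. Slide as a block was not run, as both arrays lay on 1 slide. Each log2 ratio pairs SUB1 siRNA RNA with Non-T RNA on 1 array, and no pairing beyond that was used. SESN2, PPP1R15A, TRIB3 A_24_P305541 and ATF3 A_24_P33895 lay close to background, which limits their ratios.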
